A study of Saccharomyces cerevisiae with 12 samples.

Results

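The 10 genes described here encode subunits of the mitochondrial ATP synthase of Saccharomyces cerevisiae: ATP1, ATP2, ATP3, ATP16 and ATP15 of the catalytic F1 sector, and ATP4, ATP5, ATP7, ATP14 and ATP17 of the stalk and the membrane sector FO. They were chosen by gene symbol, and each was read by a probe set of its own, so 10 of 10 were measured, among 5449 yeast genes. RNA came from cultures of BY4741, a laboratory haploid of mating type a, which lacks working copies of HIS3, LEU2, MET17 and URA3. In the mutant the cells carried plasmid p416-Tefmut2-spt15-300, with a mutant allele of SPT15 (the TATA-binding protein gene), and in the wild type they carried p416-Tefmut2-SPT15. The labels do not say how many clones stand behind a strain, and BY4741's own SPT15 is a background feature that both strains share.

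The 4 groups were the mutant and the wild type in a medium with 5% ethanol and 60 g/L glucose, and the mutant and the wild type in a medium with 0% ethanol and 20 g/L glucose. All grew at 30 °C without uracil in closed tubes to an optical density near 0.4. Ethanol and glucose changed together, so their effects cannot be told apart, and the media are called the 5% and the 0% medium here. The series describes 3 biological replicates in each group, each on its own Affymetrix array. Replicate 2 of the mutant in the 5% medium, which its title marks as an outlier, was left out, so that group has 2 arrays (replicates 1 and 3) and the others 3.

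ATP synthase uses the proton gradient across the inner mitochondrial membrane to make ATP. Protons passing through FO turn a rotor whose central shaft drives the catalytic alpha and beta subunits of F1, while a peripheral stalk keeps F1 from turning with it. In yeast, most subunits are encoded in the nucleus, as are all 10 described here, and a few of FO in the mitochondrial genome. Yeast cells with ample glucose ferment, and glucose lowers the expression of many nuclear genes of respiration.

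Intensities were used on the log2 scale, on which a difference of 0.10 is about 7% and larger steps multiply. They are relative to the RNA on the array, so less transcript per cell and fewer transcribing cells cannot be told apart. The array medians over all yeast genes lay between 10.46 and 10.52, and the 11 arrays correlated with each other at 0.943 to 0.999. The 10 genes lay between 11.95 and 13.60, in every array at least 4.61 above the level that marks background on that array. Of the mating type markers, the a-cell genes STE2, STE6, BAR1, MFA1 and MFA2 had group means of 9.79 to 13.45, and the alpha-cell genes STE3, MF(ALPHA)1 and MF(ALPHA)2 of 7.49 to 8.51. The a-cell genes moved with the groups: 4 of the 5 fell in the mutant in each medium, where 5.98% of all genes fell in the 5% medium and 8.07% in the 0% medium. With the 5% medium 5 of 5 fell in the mutant and 4 of 5 in the wild type, where 28.7% and 29.0% of all genes fell. Of the 3 alpha-cell genes, 1 fell in the mutant in each medium. On their lowest arrays these 3 lay 0.16 to 0.63 above the background level. With the 5% medium 1 of these 3 rose in the mutant and 2 in the wild type, where 33.8% and 31.7% of all genes rose. The part of these shifts in the results was not tested. ATP1 and ATP2, at 13.29 to 13.60, lay close below the brightest 1% of genes (13.66 to 13.68), and whether differences are compressed there was not tested. RNA quality was followed by how far the 3' probe sets of 8 control genes exceeded their 5' ones, which on the log2 scale was 0.379 to 0.400 in the mutant and 0.361 to 0.435 in the wild type in the 5% medium, against 0.240 to 0.266 in the mutant and 0.310 to 0.359 in the wild type in the 0% medium. It thus moved with the medium in both strains, and with the strain in the 0% medium, and its part in the results was not tested.

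**Figure D1:**
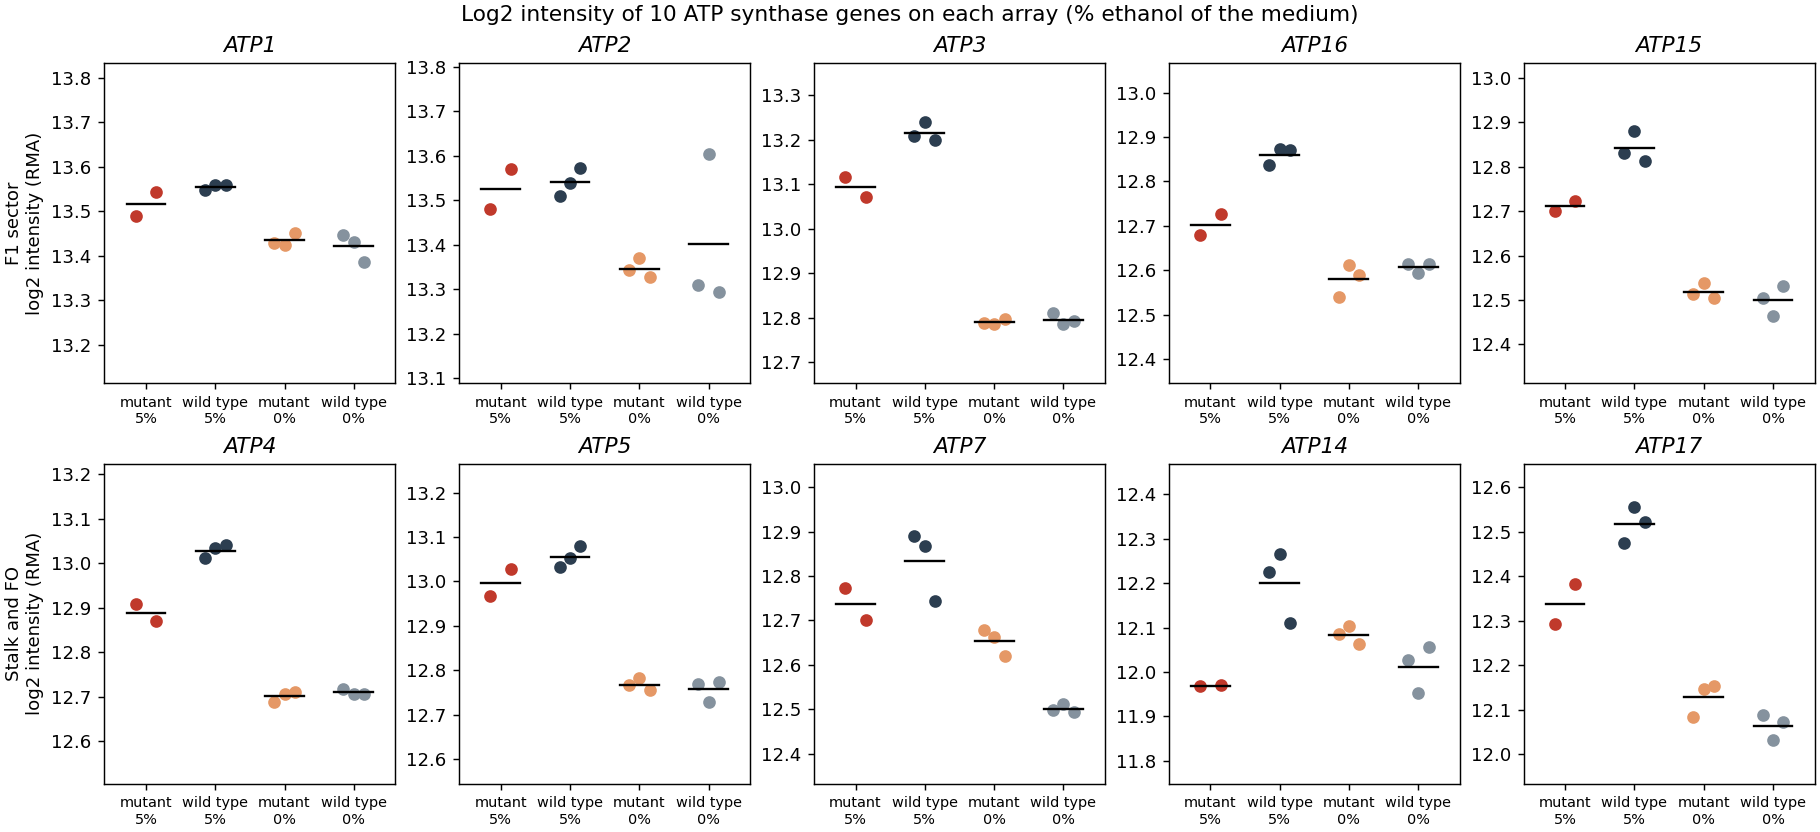
Log2 intensity (vertical axis, RMA values; every panel spans the same range) of the 10 ATP synthase genes on each of 11 arrays, with a panel per gene, points for arrays and a black line for the group mean. In the 5% medium the mutant's points lie below those of the wild type for 8 of the 10 genes, and both strains in the 0% medium lie lower still for most genes.

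Across the 11 arrays the average of the 10 genes lay at about 3 levels. After each gene was centred on its own mean, the average of the 10 was 0.044 and 0.065 in the mutant and 0.158 to 0.194 in the wild type in the 5% medium, against -0.102 to -0.080 in the mutant and -0.121 to -0.112 in the wild type in the 0% medium. The wild type in the 5% medium stood highest, the mutant there was intermediate, and the strains lay close together, without overlap, in the 0% medium. Single genes departed from this average. ATP14 averaged 11.97 in the mutant in the 5% medium, against 12.08 in the mutant and 12.01 in the wild type in the 0% medium. ATP2 averaged 13.53 in the mutant and 13.54 in the wild type in the 5% medium. The following comparisons share arrays: the wild type in the 5% medium, for example, enters both its medium response and the strain difference in that medium.

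The first question was how the medium with ethanol and more glucose changed these transcripts in the wild type. In the fit of limma over all 5449 genes, 9 of the 10 genes rose in the 5% medium at a Benjamini-Hochberg adjusted p under 0.05, where 60.8% of all genes changed (31.7% rose and 29.0% fell), and 0 of the 10 fell (also 0 at an unadjusted p under 0.05). The median change of the 10 was 0.31 on the log2 scale, against 0.01 over all genes. For 9 of the 10, every array of the 5% medium lay above every array of the 0% medium, as for 34.3% of all genes, and for 0 below, where 32.5% of all genes lay below. The rises were modest, from 9.73% for ATP1 to 37.0% for ATP17.

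Among the F1 genes, ATP3, the gamma subunit that forms the rotating shaft, had log2 intensities of 13.21, 13.24 and 13.20 in the 5% medium, against 12.81, 12.79 and 12.79 in the 0% medium. The groups were far apart, and ATP3 rose 1.34-fold (log2 change 0.42, SE 0.030, adjusted p = 2.24e-06). ATP15 and ATP16, the epsilon and delta subunits at the foot of that shaft, rose 1.27-fold and 1.19-fold (adjusted p = 1.82e-05 and 0.000117). ATP1, the alpha subunit, read 13.55, 13.56 and 13.56 in the 5% medium, against 13.45, 13.43 and 13.39 in the 0% medium. Its change of 0.13 was the smallest of the 9 (adjusted p = 0.00441).

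ATP2, the catalytic beta subunit, was the exception. It read 13.51, 13.54 and 13.57 in the 5% medium, against 13.31, 13.60 and 13.29 in the 0% medium. Replicate 2 of the 0% medium lay above all arrays of the 5% medium while the other two lay below them, and the difference of 0.14 was not called (SE 0.073, 95% interval -0.03 to 0.30, adjusted p = 0.130). Without that array ATP2 was 0.24 higher (adjusted p = 0.00166), and all 10 genes then rose.

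All 5 genes of the stalk and FO rose in the wild type. ATP17, subunit f of FO, read 12.47, 12.56 and 12.52 in the 5% medium, against 12.09, 12.03 and 12.07 in the 0% medium, the largest rise of the 10 (log2 change 0.45, SE 0.039, adjusted p = 9.46e-06). ATP4, ATP5 and ATP7, which encode subunit b, the oligomycin sensitivity conferring protein and subunit d of the peripheral stalk, rose by 0.32, 0.30 and 0.33 on the log2 scale (adjusted p between 1.19e-05 and 0.000131). ATP14, subunit h of the same stalk, read 12.23, 12.27 and 12.11 in the 5% medium, against 12.03, 11.95 and 12.06 in the 0% medium. Replicate 3 of the 5% medium lay close above the 0% arrays, and the rise was 0.19 (SE 0.046, adjusted p = 0.00526).

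In the mutant, 6 of the 10 genes rose in the 5% medium and 0 fell, where 62.5% of all genes changed (33.8% rose and 28.7% fell), and at an unadjusted p under 0.05 1 of the 10, ATP14, was lower. The median change was 0.18, against 0.02 over all genes. For 9 of the 10 each array of the 5% medium lay above each of the 0% medium, as for 40.8% of all genes, and for the other, ATP14, each lay below, as for 35.8%. ATP3 rose most, with 13.12 and 13.07 in the 5% medium, against 12.79, 12.78 and 12.80 in the 0% medium (log2 change 0.30, SE 0.033, adjusted p = 5.19e-05).

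ATP5 rose by 0.23, ATP17 by 0.21, and ATP15 and ATP4 by 0.19 each (adjusted p between 0.000475 and 0.00244). ATP16 rose by 0.12 (adjusted p = 0.0145). It lost this call when replicate 1 of the 0% medium or replicate 3 of the 5% medium was removed (adjusted p = 0.0529 and 0.102) and when the fit held the mutant arrays alone (0.0521). ATP1 and ATP2 were 0.08 and 0.18 higher without passing the threshold (adjusted p = 0.0709 and 0.0815). With only the mutant arrays in the fit, ATP2 rose (adjusted p = 0.0185).

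ATP7 and ATP14 stood apart from the other stalk genes in the mutant. ATP7 read 12.77 and 12.70 in the 5% medium, against 12.68, 12.66 and 12.62 in the 0% medium, a difference of 0.08 (95% interval -0.03 to 0.19, adjusted p = 0.159). ATP14 read 11.97 on both arrays in the 5% medium, against 12.09, 12.10 and 12.06 in the 0% medium. It was thus lower on every array of the 5% medium, by 0.11 (SE 0.051, adjusted p = 0.0740), while it rose in the wild type.

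**Figure D2:**
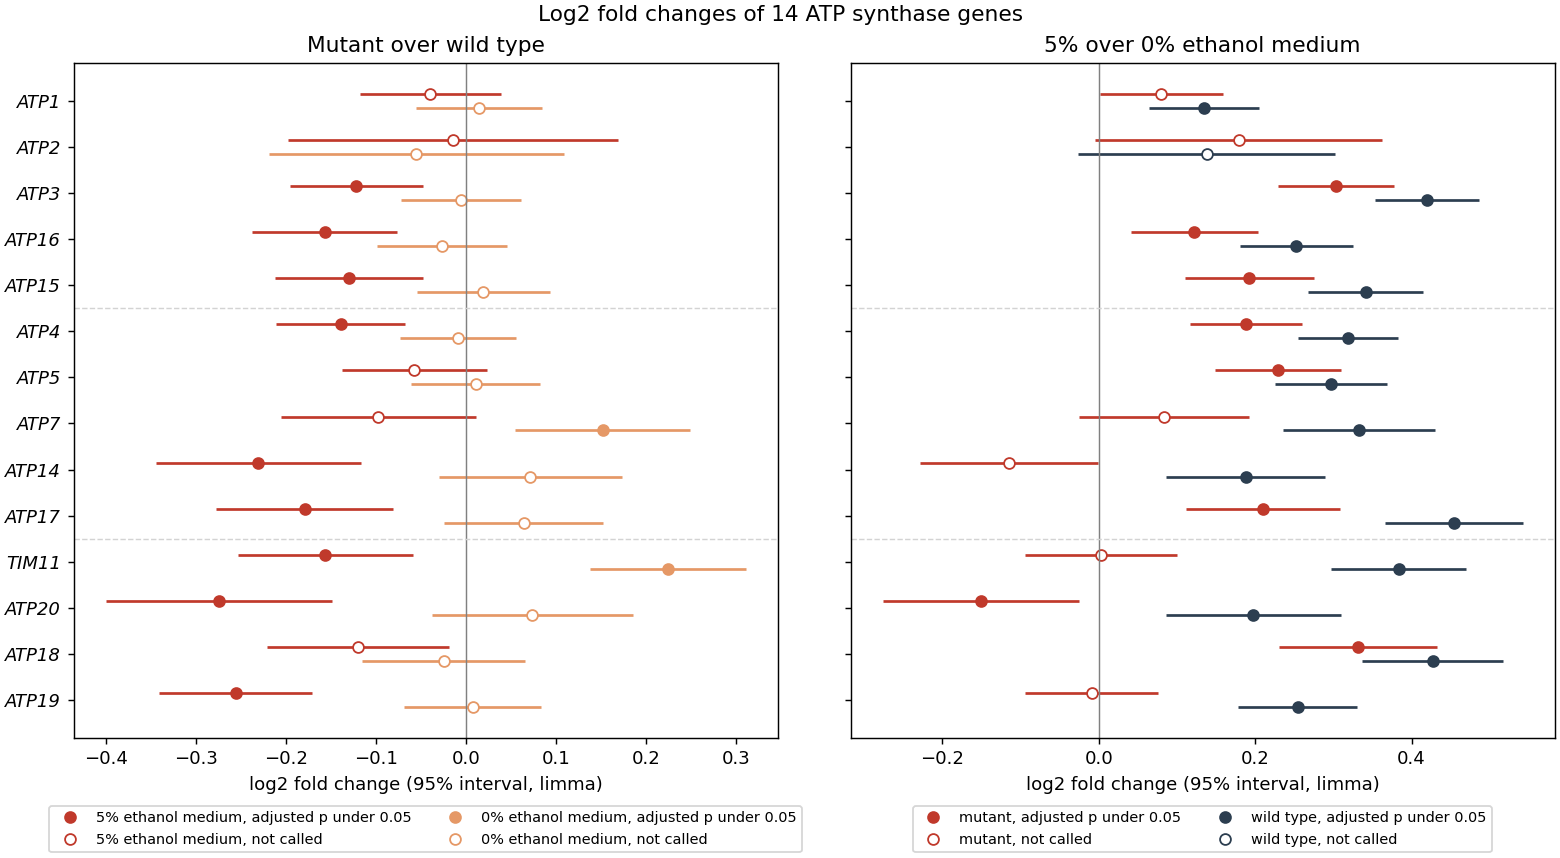
Log2 fold changes (horizontal axis, with 95% intervals from limma) of the 10 genes and of 4 further subunits below the lower dashed line, for the mutant over the wild type in each medium (left) and for the 5% over the 0% medium in each strain (right). Filled points have an adjusted p under 0.05; on the left all 14 points of the 5% medium lie below 0, and on the right the wild type's point lies right of the mutant's for every gene except ATP2.

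The second question was how the mutant differed from the wild type in the 5% medium. There 6 of the 10 genes fell and 0 rose (also 0 at an unadjusted p under 0.05), where 11.7% of all genes changed (5.98% fell and 5.73% rose). All 10 differences were negative, with a median of -0.13, against -0.01 over all genes. For 8 of the 10 both mutant arrays lay below all 3 wild type arrays, as for 21.5% of all genes, and for 0 above, where 18.5% of all genes lay above. The median of the arrays and the 3' to 5' difference overlapped between the strains in this medium, and their part in the strain differences was not tested.

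ATP14 had the largest difference. The mutant's 11.97 and 11.97 lay below the wild type's 12.23, 12.27 and 12.11, and its log2 level fell by 0.23 (SE 0.051, adjusted p = 0.0247), or to 0.852 of the wild type level. ATP17 read 12.29 and 12.38 in the mutant, against 12.47, 12.56 and 12.52 in the wild type, and fell by 0.18 (SE 0.044, adjusted p = 0.0327). ATP4 read 12.91 and 12.87 in the mutant, against 13.01, 13.03 and 13.04 in the wild type. The strains did not overlap, and ATP4 fell by 0.14 (SE 0.032, adjusted p = 0.0272).

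The genes of the central stalk were the 3 F1 genes that fell. ATP16 read 12.68 and 12.73 in the mutant, against 12.84, 12.87 and 12.87 in the wild type, and fell by 0.16 (SE 0.036, adjusted p = 0.0272). ATP15 read 12.70 and 12.72 in the mutant, against 12.83, 12.88 and 12.81 in the wild type, a fall of 0.13 (adjusted p = 0.0490). ATP3 fell by 0.12 (adjusted p = 0.0433). The genes of the alpha and beta subunits, the brightest of the 10, differed by -0.04 (ATP1, 95% interval -0.12 to 0.04, adjusted p = 0.452) and -0.01 (ATP2, -0.20 to 0.17, adjusted p = 0.917).

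ATP5 and ATP7 were not called either. ATP5 read 12.97 and 13.03 in the mutant, against 13.03, 13.05 and 13.08 in the wild type (difference -0.06, adjusted p = 0.290). ATP7 overlapped between the strains, with 12.77 and 12.70 in the mutant, against 12.89, 12.87 and 12.74 in the wild type (difference -0.10, adjusted p = 0.200).

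These falls rest on few arrays. With only the 5 arrays of the 5% medium in the fit, 0 of the 10 genes and 6 of all genes were called, and 0 of the 10 without wild type replicate 2, mutant replicate 1 or mutant replicate 3 of that medium, where 184, 296 and 72 of all genes were called. Without replicate 3 of the wild type there, 7 of the 10 fell, among 1326 genes called. Of the 0% medium, whose arrays add to the estimate of the spread, leaving out replicate 2 of either strain left 2, wild type replicate 1 or mutant replicate 3 left 3, and wild type replicate 3 or mutant replicate 1 left 4; without replicate 1 of the wild type in the 5% medium 3 were called. The 6 genes that fell were lower in the mutant under each of the 20 alternatives tried. For each of the 6, both mutant arrays lay below all 3 wild type arrays, so leaving out 1 array could not change the direction. The array brought back in the fits of all 12 arrays read lower still for these genes. The shared direction therefore adds little to the calls.

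The third question was how the strains differed in the 0% medium. There 1 of the 10 genes, ATP7, rose in the mutant and 0 fell (also 0 at an unadjusted p under 0.05), where 16.3% of all genes changed (8.26% rose and 8.07% fell), so the share is near that of all genes. ATP7 read 12.68, 12.66 and 12.62 in the mutant, against 12.50, 12.51 and 12.49 in the wild type. The groups did not overlap, and ATP7 rose by 0.15 (SE 0.043, adjusted p = 0.0417). The call ended when any 1 of these 6 arrays was left out (adjusted p between 0.0734 and 0.129).

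For 2 of the 10, ATP7 and ATP14, every mutant array lay above every wild type array, as for 15.9% of all genes, and for 0 below, where 26.7% of all genes lay below. The other 9 genes differed by -0.06 to 0.07 in the 0% medium. For ATP14, at 12.09, 12.10 and 12.06 in the mutant, against 12.03, 11.95 and 12.06 in the wild type, the strains lay close together, with a difference of 0.07 (adjusted p = 0.336). ATP3 differed by -0.01 (95% interval -0.07 to 0.06) and ATP4 by -0.01 (-0.07 to 0.05), with all arrays of both strains between 12.78 and 12.81 for ATP3 and between 12.69 and 12.72 for ATP4. For these 2 genes the intervals thus leave room for differences of less than 0.10 in this medium.

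The interaction asked whether the medium response differed between the strains, as the response of the mutant minus that of the wild type. Of the 10 genes 0 passed the threshold in limma's test, where 1.21% of all genes did (0.385% higher and 0.826% lower), and 7 of the 10 were lower at an unadjusted p under 0.05, as were 482 of all 5449 genes. The median of the 10 was -0.13, against 0.01 over all genes, and 9 of the 10 values were negative. The largest were those of ATP14 at -0.30 (SE 0.068, adjusted p = 0.0730), ATP7 at -0.25 (SE 0.065, adjusted p = 0.104) and ATP17 at -0.24 (SE 0.059, adjusted p = 0.0862). Without replicate 3 of the wild type in the 5% medium ATP14 and ATP7 were called (adjusted p = 0.0213 and 0.0231). The genes of the F1 sector lay between -0.15 and 0.04, and ATP2 had the only positive value, with a 95% interval of -0.21 to 0.29; without replicate 2 of the wild type in the 0% medium it was -0.06.

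The remaining nuclear subunits on the array are TIM11, ATP20, ATP19 and ATP18, which encode subunits e, g, k and i of the membrane sector. In yeast, subunits e and g hold ATP synthase dimers together and k is found with dimers. In the wild type all 4 rose in the 5% medium, by 0.20 to 0.43 on the log2 scale. In the mutant ATP18 rose by 0.33 and ATP20 fell by 0.15 (adjusted p = 0.000210 and 0.0386), while TIM11 and ATP19 differed by 0.00 and -0.01 (adjusted p = 0.957 and 0.852). The fall of ATP20 ended without any of 5 arrays.

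TIM11 read 12.24 and 12.20 in the mutant, against 12.37, 12.44 and 12.32 in the wild type, in the 5% medium, and 12.21, 12.23 and 12.20 in the mutant, against 12.03, 11.95 and 11.99 in the wild type, in the 0% medium. The mutant thus had about the same level in both media, which lay between the 2 levels of the wild type. TIM11 rose in the mutant in the 0% medium by 0.22 (adjusted p = 0.00441), a call kept without any single array, and fell in the 5% medium by 0.16 (adjusted p = 0.0465), a call kept in 1 of 11 fits without a single array (adjusted p up to 0.261). ATP19 read 11.90 and 11.89 in the mutant, against 12.16, 12.19 and 12.10 in the wild type, in the 5% medium, and averaged 11.90 in both strains in the 0% medium. It fell in the mutant by 0.26 in the 5% medium (SE 0.038, adjusted p = 0.00587), and ATP20 fell there by 0.28 (adjusted p = 0.0196). Over all 14 nuclear subunits, 9 fell in the mutant in the 5% medium (5.98% of all genes fell), and 2 rose in the 0% medium, or 14.3%, against 8.26% of all genes. In the interaction, where 1.21% of all genes were called, 2 of the 14 were, TIM11 at -0.38 and ATP19 at -0.26 (adjusted p = 0.0191 and 0.0436).

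**Figure D3:**
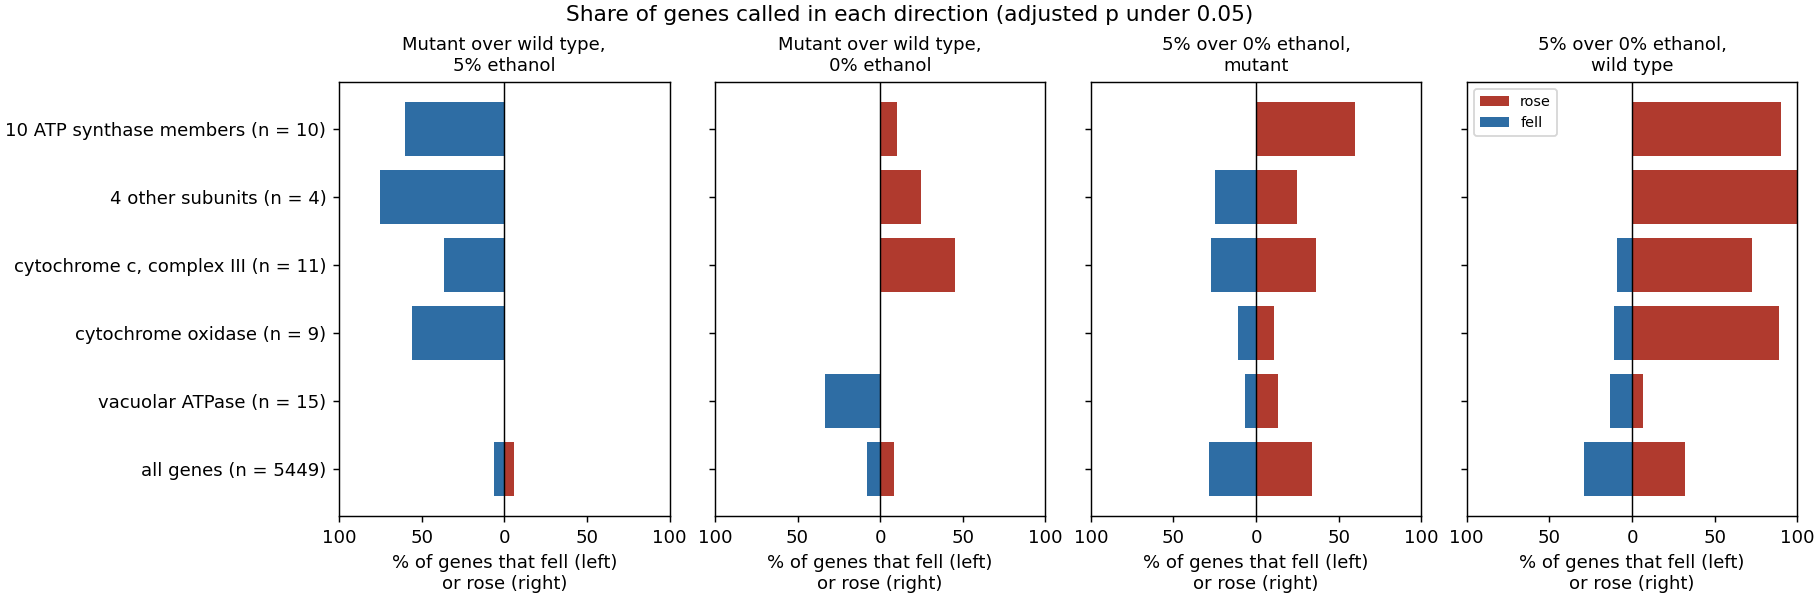
Percent of genes (horizontal axis) with an adjusted p under 0.05 that fell (blue, left) or rose (red, right), by gene list and comparison. In the wild type's medium response (rightmost panel) 90.0% of the 10 ATP synthase genes rose, against 31.7% of all genes; in the 5% medium (leftmost panel) 60.0% of them fell in the mutant, against 5.98% of all genes.

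The respiratory chain builds the gradient that ATP synthase uses, and its genes are given for comparison, with no test between lists. Of 11 genes of cytochrome c and complex III, 4 fell in the mutant in the 5% medium, among them RIP1, which encodes the Rieske protein, and 5 rose in the 0% medium. Of the 10 ATP synthase genes, 6 fell in the 5% medium and 1 rose in the 0% medium. Between the strains, 5.98% of all genes fell in the 5% medium and 8.26% rose in the 0% medium. With the medium, 4 of the 11 rose and 3 fell in the mutant, and 8 rose and 1 fell in the wild type. Over all genes 33.8% rose and 28.7% fell in the mutant, and 31.7% rose and 29.0% fell in the wild type. Of 9 nuclear genes of cytochrome oxidase, 5 fell in the mutant in the 5% medium and 0 changed in the 0% medium in limma's test, with 1 at an unadjusted p under 0.05. In the mutant's medium response 1 of these 9 rose and 1 fell, against 6 of the 10 ATP synthase genes that rose, while in the wild type 8 of 9 rose and 1 fell. Of the 4 genes of complex II, SDH1 to SDH4, 0 changed between the strains in the 5% medium in limma's test (1 was lower at an unadjusted p under 0.05) and 2 rose in the mutant in the 0% medium. With the medium, 0 of these 4 rose and 2 fell in the mutant, while 3 rose in the wild type. Of 15 genes of the vacuolar ATPase, a rotary enzyme of related build that pumps protons, 0 changed in the 5% medium between the strains in limma's test (3 were lower at an unadjusted p under 0.05) and 1 rose and 2 fell in the wild type's medium response. In the 0% medium 5 of these 15 fell in the mutant, where 8.07% of all genes fell, and all 15 differences were negative. The median interaction was -0.27 for cytochrome c and complex III, -0.27 for cytochrome oxidase and -0.29 for complex II. It was -0.13 for the 10 ATP synthase genes, 0.08 for the vacuolar ATPase and 0.01 over all genes.

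The inhibitor proteins Inh1 and Stf1 bind F1 and keep it from consuming ATP when the gradient fails. INH1 averaged 12.56 in the mutant and 12.64 in the wild type in the 5% medium, against 11.85 in the mutant and 11.97 in the wild type in the 0% medium. It rose with the medium by 0.71 in the mutant and 0.68 in the wild type, more than any of the 10 subunit genes, and the interaction was 0.03 (95% interval -0.15 to 0.21, adjusted p = 0.865). STF1 rose with the medium by 0.33 in the mutant and by 0.59 in the wild type (interaction -0.27, adjusted p = 0.151). STF2, which encodes a protein that acts with these inhibitors, rose in the mutant in the 0% medium by 0.45 (adjusted p = 0.0310).

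With the medium, the factors that assemble the enzyme or express its mitochondrial genes changed in both directions. Of 12 such genes, 3 rose and 5 fell with the medium in the mutant, where 33.8% of all genes rose and 28.7% fell. In the wild type 6 of them rose and 1 fell, where 31.7% of all genes rose and 29.0% fell. Between the strains in the 5% medium 3 of the 12 fell and 1 rose, where 5.98% of all genes fell and 5.73% rose. Of these 12 differences 10 were negative, with a median of -0.12, against -0.13 for the 10 ATP synthase genes. The median interaction of the 12 was -0.16, with 11 negative values, against -0.13 for the 10 and 0.01 over all genes. NCA3, which acts in the expression of the mitochondrial ATP6 and ATP8 genes, rose with the medium by 1.58 in the mutant and by 1.83 in the wild type. It was also higher in the mutant than in the wild type, by 0.46 in the 5% medium and by 0.71 in the 0% medium (adjusted p = 0.0130 and 0.000255). ATP25, needed for the mitochondrial OLI1 message and the ring of subunit c, fell in the mutant in the 5% medium by 0.32 (adjusted p = 0.00922). In the 0% medium ATP25 differed by -0.15 without passing the threshold (adjusted p = 0.0631), and its interaction was -0.17 (adjusted p = 0.231). HAP4, the activating subunit of the complex that turns on respiration genes, rose with the medium by 0.70 in the mutant and by 0.86 in the wild type. Of the 4 genes HAP2 to HAP5, 0 passed the interaction test in limma (also 0 at an unadjusted p under 0.05). Between the strains in the 5% medium 1 of these 4 rose and 0 fell, where 5.73% of all genes rose and 5.98% fell. HAP4 read 11.03 and 11.17 in the mutant there, against 11.19, 11.39 and 11.30 in the wild type, and was not called.

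The genes whose centred profiles lay nearest to the mean profile of the 10, by root mean square difference over the 11 arrays, were UGO1 (0.0262 on the log2 scale), RPN12 (0.0305), HER2 (0.0324), FBP26 (0.0327) and MRPL10 (0.0365), where the median of all genes outside the 10 was 0.174. The 10 genes themselves, which enter that mean, lay between 0.0290 for ATP4 and 0.102 for ATP14. ATP2 was next to ATP14 with 0.0953, so these 2 genes followed the shared profile least closely. The value of ATP2 includes replicate 2 of the wild type in the 0% medium, at 13.60, against 13.31 and 13.29 on the other arrays of that group.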

How the data were processed

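The deposited values are linear intensities, 1 for each probe set on each of 12 arrays, which the authors made with RMA, per the submitters' processing notes. The sources used here name no version or settings, nor the set of arrays that entered each RMA run. Log2 was taken with no pseudocount. Of 7245 probe sets in the platform annotation, 5498 matched single genes of the RefSeq R64 gene table, which left 5449 genes after 47 genes with several probe sets were reduced to the brightest. Another 1746 probe sets, of Schizosaccharomyces pombe, gave the background level, their 95th percentile on each array (7.24 on average).

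The group means were tested in R 4.3.3 by limma 3.58.1 (lmFit, then eBayes; 7 residual and 2.73 prior degrees of freedom), with 1 mean per group, all 11 arrays and Benjamini-Hochberg adjustment over 5449 genes. The script was tested on simulated data. The 10 genes and the lists were chosen with earlier results of these data known. Named genes were the 10, the other subunits and inhibitors, from each other list up to 3 genes per comparison with the smallest p (their values in other comparisons may be given too), and the 5 nearest profiles. The mating type markers were a check of the strain. The alternatives were all 12 arrays with equal weights or array weights, a replicate block, aligned medians, a second quantile normalization, a filter on the lowest 25% of genes, a variance trend with robust fitting, probe set means, only the groups compared, and each array left out in turn. The number of arrays limits the precision.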

Additional observations from a re-analysis of the deposited data

Results flagged for a closer look

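The medium response differed between the strains, by limma's interaction test at an adjusted p under 0.05 over all genes, for 2 subunits of the ATP synthase outside the 10 genes. The mutant's response minus that of the wild type was -0.38 on the log2 scale for TIM11 and -0.26 for ATP19. The call of TIM11 ended without replicate 2 of either strain in the 0% medium or replicate 3 of the mutant in either medium (adjusted p between 0.0526 and 0.0830). The call of ATP19 ended without any of the arrays except replicate 3 of the wild type in the 5% medium (adjusted p between 0.0679 and 0.141 without the others), and with a replicate block (0.0686). Both calls also ended with all 12 arrays at equal weights (adjusted p = 0.685). Among the neighbouring lists the difference was -0.35 for ATP22, a factor for translation of the mitochondrial ATP6 message, -0.49 for CYC1, the main cytochrome c, -0.31 for QCR2, -0.26 for QCR9 and -0.33 for RIP1 of complex III, and -0.25 for COX4 of cytochrome oxidase. The 3' to 5' difference of the control genes also moved with the medium and, in the 0% medium, with the strain, and its part was not tested.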

How the results depend on the processing

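Of the 70 results for 14 subunit genes in 5 comparisons, 1386 values under the alternatives were set against the reported ones: 1222 stayed on their side of the threshold, 130 lost a call (28 of these with all 12 arrays at equal weights), 28 gained one and 6 changed direction. A further 30 values, which passed the threshold in neither setting and are counted among the 1222, differed in sign. The 6 were the mutant's medium responses with all 12 arrays at equal weights, at -0.044 for ATP3, -0.14 for ATP4, -0.16 for ATP5, -0.028 for ATP15, -0.25 for ATP16 and -0.037 for ATP17. In that fit 0 of the 10 genes changed in any comparison, and 13, 0, 408, 744 and 3 of all genes did, in the order strain in the 0% medium, strain in the 5% medium, wild type response, mutant response and interaction. The array brought back correlated with the others at 0.747 to 0.789. With array weights it weighed 0.00412, and 3 of the 10 changed between the strains in the 0% medium (2729 genes in all, against 890), 3 in the 5% medium and 4 in the interaction (486 genes, against 66). With only the groups compared, 0 changed between the strains in the 5% medium, and with quantile normalization repeated 1, ATP14, passed the interaction (adjusted p = 0.0477). With array medians aligned 4 of the 10 fell in the 5% medium. Leaving out each array in turn gave 0 to 1 of the 10 between the strains in the 0% medium, 0 to 7 in the 5% medium, 9 to 10 for the wild type's medium response, 5 to 7 for the mutant's and 0 to 2 for the interaction. With the replicate block, 1, 4, 9, 7 and 0 of the 10 changed in the order given above, and ATP3 and ATP15 lost their falls in the 5% medium (adjusted p = 0.0650 and 0.0785). The shared numbers were not taken as pairs: of 15 same-numbered pairs of arrays, 11 correlated above 0.1 in their deviations from the group means (range -0.247 to 0.709), and 6 of 11 arrays correlated best with one of their own number. All 7 such pairs that leave out the wild type in the 0% medium lay between 0.257 and 0.709. The strain difference in the 5% medium rests on 2 mutant arrays. For the fits given without a count over all genes, whether a shift is particular to the 10 genes was not tested.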

Other observations

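The carriers that bring ADP and phosphate to the enzyme and take ATP out did not move as a set. PIC2, a phosphate carrier of the inner membrane, rose with the medium 2.09-fold in the mutant and 2.44-fold in the wild type, and MIR1, the main phosphate carrier, rose 1.16-fold and 1.22-fold. AAC3, the ADP/ATP carrier isoform of cells without oxygen, fell with the medium by 0.53 on the log2 scale in the mutant and by 0.74 in the wild type, while AAC1 rose by 0.57 in the mutant and 0.39 in the wild type. Between the strains only AAC3 of these 5 genes was called, with 9.43, 9.31 and 9.38 in the mutant, against 9.70, 9.67 and 9.59 in the wild type, in the 0% medium (difference -0.28, adjusted p = 0.00877).

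The array left out, replicate 2 of the mutant in the 5% medium, read lower than the other 2 arrays of its group for all 10 genes. ATP5 read 11.82 on it, against 12.97 and 13.03 on the others, ATP14 10.72, against 11.97 and 11.97, and ATP1 13.22, against 13.49 and 13.54. This array was shifted as a whole, with a median over all yeast genes of 9.89, against 10.46 to 10.52 on the 11 arrays used. Its background level was 10.78, against 7.24 on average, so ATP14 lay below background there. Its brightest 1% of genes began at 13.22, against 13.66 to 13.68. Low readings on this array were thus not confined to the 10 genes. ATP19 was an exception among the other subunits, at 12.12 on this array, against 11.90 and 11.89.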
